A study of Mus musculus with 12 samples.

Results

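Adipocytes differentiated from primary mouse embryonic fibroblasts (PMEF) were compared with adipose tissue taken from wild-type mice (eWAT, which stands for white fat of the epididymal depot). The comparison used 6 of the 12 arrays of the study, which were the 3 arrays titled as PMEF adipocytes and the 3 titled as eWAT. The other 6 arrays held adipocytes of 2 further culture models, made from the 3T3-L1 preadipocyte line or from embryonic stem (ES) cells of the mouse. The study's design describes the mice as healthy and each group as a biological triplicate. All 4 groups were unmodified by any allele or agent that the labels name. The strain and age of the mice, the embryonic stage of the fibroblasts and the differentiation protocol were not given in the sources used here. Any pooling of animals was not given either. Sex was not stated for either group, though an epididymal depot is one of male mice. It was also not stated whether the 3 samples of a group came from separate embryos, mice or cultures. The p-values therefore measure a spread between samples of a group that may be technical. This spread was estimated from all 4 groups of the 12 arrays together. Each gene was represented by a probe set with exactly 1 gene symbol, or by the brightest such probe set where there were several, which left 19938 genes.

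White adipocytes store triglyceride in a large lipid droplet and release it as fatty acids when lipolysis is switched on. PPAR gamma and C/EBP alpha are the transcription factors that hold the fat cell program in place, and hormones such as adiponectin and leptin are secreted by the mature cell. Embryonic fibroblasts are mesenchymal cells of mixed origin, of which only some turn into fat cells when given adipogenic hormones. Fat tissue, in contrast, holds adipocytes together with vessels, resident immune cells, mesothelium and stromal progenitors. In bulk RNA, fewer cells of a type and less RNA per cell cannot be told apart, and this holds for every result that follows.

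Values are log2 intensities, and a difference is the PMEF mean minus the eWAT mean of 3 arrays each, with the moderated standard error (SE) of the limma fit. The words rose and fell are used for genes higher or lower in PMEF adipocytes than in eWAT where the p-value, adjusted over all genes by the Benjamini-Hochberg method, was under 0.05, and a change of at least 2-fold is a log2 difference of 1 or more in size. The 1190 olfactory and vomeronasal receptor genes on the array, which fat is not known to use, had a 95th percentile of 5.22 in PMEF adipocytes and 5.24 in eWAT. A level below this is called within the background range here, and a difference that reaches into it has an uncertain size. Array medians were 6.32 to 6.35 in both groups. Correlations across genes, which are not independent replicates, were 0.992 to 0.996 within the groups and 0.928 to 0.934 between them. The eWAT replicate 1 array stood apart, with 140 genes more than 1 log2 unit from the mean of the other 2 eWAT arrays, against 2 to 27 genes in the other 5 arrays of the comparison. Calls that were lost without this array, and the larger shifts among the genes named, are given with and without it.

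PMEF adipocytes differed from eWAT in 9225 genes (46.3%), of which 4924 rose (24.7% of genes) and 4301 fell (21.6%). At least 2-fold, 980 genes rose (4.92%) and 1088 fell (5.46%), together 10.4% of genes. The median difference over all genes was 0.05. With the arrays centred on 9 reference genes, 41.9% of the called genes were rises, against 53.4% as deposited, and 42.0% against 47.4% of those called at least 2-fold. The 3 PMEF arrays lay above all 3 eWAT arrays in 5619 genes (28.2%) and below them in 4732 (23.7%), so that the groups did not overlap in 51.9% of genes. The counts of the gene lists below are to be read against these shares of all genes. The lists were chosen with earlier results of these data known, so a count above these shares is a description and not a test.

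The rises were led by secreted and matrix genes. Reg1, which codes for a secreted lectin-like protein best known from the pancreas, measured 11.94, 11.98 and 11.85 in PMEF adipocytes and 4.69, 4.67 and 5.04 in eWAT. The difference was 7.12 ± 0.13 (limma adjusted p = 1.59e-13). Agtr2, the type 2 angiotensin receptor, measured 11.10, 11.09 and 10.96 against 4.01, 5.08 and 4.69, a difference of 6.45 ± 0.20. In both genes all PMEF arrays were bright and the eWAT mean lay within the background range. Cemip, a hyaluronan-degrading protein, was higher by 5.83 ± 0.09, Egfl6, an EGF-repeat protein of the matrix, by 5.83 ± 0.11, and Col12a1, a fibril-associated collagen, by 5.73 ± 0.09. The same direction held for the carboxypeptidase Cpa6 at 5.52 ± 0.09, the guidance ligand Slit2 at 5.48 ± 0.16, the collagen prolyl hydroxylase subunit P4ha3 at 5.26 ± 0.17, the kinase gene Nrk at 5.23 ± 0.14, the matricellular gene Ccn3 at 5.07 ± 0.13 and the chloride channel accessory gene Clca3a1 at 5.0 ± 0.18. Of the 12 genes with the largest rise, Xist was the other member and is described with the sex-linked genes. The 12 were taken among called genes whose PMEF and eWAT arrays did not overlap.

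The falls were led by genes of immune and vessel cells. H2-Aa, a class II antigen-presenting chain, measured 3.93, 3.61 and 4.16 in PMEF adipocytes and 11.10, 11.37 and 11.49 in eWAT, a difference of -7.42 ± 0.15 (limma adjusted p = 3.95e-13). Its chaperone Cd74 was at -6.82 ± 0.18 and its partner chain H2-Ab1 at -6.28 ± 0.13. Retnla, a secreted resistin-like protein of alternatively activated macrophages, measured 3.24, 3.47 and 3.42 against 10.03, 10.30 and 10.13, a difference of -6.78 ± 0.09. The arrays of the groups were far apart in each of these genes, with PMEF adipocytes in the background range. The endothelial genes Adgrl4, Cdh5 and Emcn fell by 6.10, 5.48 and 5.26, and the C-type lectin genes Cd209f and Cd209d fell by 6.10 and 5.37. Without eWAT replicate 1 the difference of Cd209d was -5.79. Cyyr1 was at -5.21 ± 0.11 and Timp4, an inhibitor of matrix metalloproteinases, at -5.65 ± 0.09. Alb, the albumin gene, measured 10.81, 9.93 and 9.87 in eWAT and 4.98, 5.11 and 5.10 in PMEF adipocytes.

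**Figure D1:**
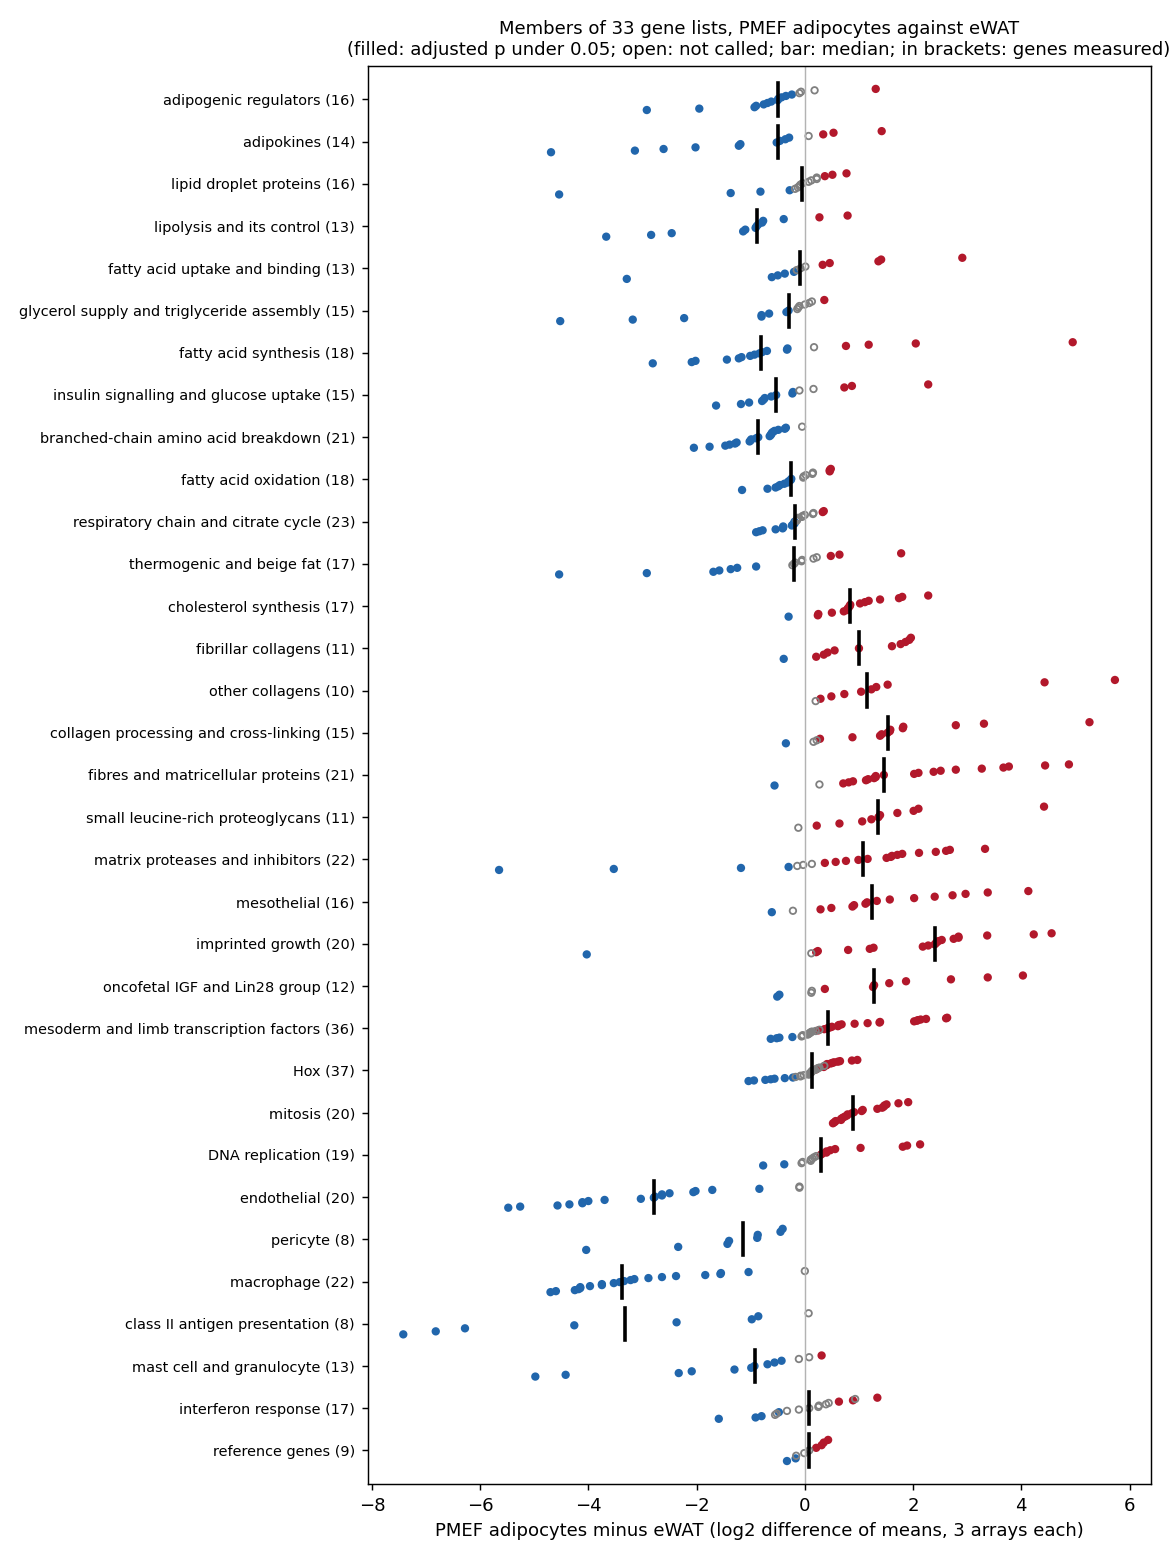
Log2 differences (PMEF adipocytes minus eWAT) of the measured members of 33 gene lists, with filled points for called genes, open points for the rest and a bar at each list's median. Most fat cell lists lie to the left of 0, cholesterol synthesis and the matrix, imprinted and mitosis lists to the right, and the macrophage, class II and endothelial lists farthest left with medians of -3.38, -3.32 and -2.78.

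The regulators of the fat cell program were present in PMEF adipocytes at a lower level than in tissue. Of 16 measured regulators, 12 fell, 2 of them at least 2-fold, and 1 rose (median -0.50), and none lay within the background range in either group. Pparg, the master regulator of adipogenesis, measured 10.35, 10.14 and 10.41 in PMEF adipocytes and 11.13, 11.28 and 11.30 in eWAT, a difference of -0.93 ± 0.08 (limma adjusted p = 4.99e-07). Cebpa, its partner, measured 9.53, 9.85 and 9.63 against 10.56, 10.26 and 10.49, a difference of -0.76 ± 0.11. In both genes every PMEF array was below every eWAT array. Larger falls were seen in Klf15, a regulator of metabolism in mature fat cells (-1.95 ± 0.10), and in Ebf2, which marks brown and beige fat progenitors (-2.92 ± 0.10). The latter measured 5.86, 5.89 and 6.02 in PMEF adipocytes, against 8.69, 8.90 and 8.95. Ebf1, a related early B cell factor with a role in fat cell commitment, had overlapping arrays and a difference of -0.07 ± 0.07. The exception among the regulators was Klf5, an early adipogenic factor, which rose by 1.31 ± 0.09.

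Among 14 measured adipokines, 10 fell, 6 of them at least 2-fold, and 3 rose (median -0.49). Adiponectin and resistin differed less than leptin. Adipoq, the adiponectin gene, measured 12.08, 11.95 and 11.94 in PMEF adipocytes and 12.47, 12.42 and 12.44 in eWAT, and Retn, the resistin gene, was at -0.52 ± 0.07. Lep, the leptin gene, which signals the size of fat stores to the brain, measured 5.78, 5.45 and 6.02 against 11.14, 10.23 and 9.96. This difference of -4.69 ± 0.26 was a fall of 25.8-fold, and no array of the groups overlapped. It was -4.34 without eWAT replicate 1. The retinol carrier Rbp4 was at -3.14 ± 0.11, the neuregulin Nrg4 at -2.61 ± 0.08 and Itih5, a hyaluronan-binding protein of fat tissue, at -2.02 ± 0.09. Agt, the angiotensinogen gene, rose by 1.42 ± 0.09 and Metrnl by 0.53 ± 0.08. Serpina12 also rose by the test, at levels of 4.11 to 4.52 that lay in the background range, and its call was lost without PMEF replicate 2 (0.35) or 3 (0.23) and without eWAT replicate 1 (0.32) or 3 (0.31).

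Lipid droplet genes had no common direction. Of 16 measured, 4 fell and 3 rose (median -0.06), and 2 fell at least 2-fold, a share of calls close to that of all genes (46.3%). Cidec, which fuses droplets into a single large one, measured 12.07, 12.18 and 12.08 in PMEF adipocytes and 12.33, 12.20 and 12.18 in eWAT, a difference of -0.13 ± 0.07 that was not called. Plin1, the coat protein that guards the droplet from lipases, was at -0.82 ± 0.08 and Plin4 at -1.37 ± 0.06. Cidea, a relative of Cidec that is high in brown fat, stood far from the rest. It measured 5.99, 5.89 and 6.13 in PMEF adipocytes and 10.90, 10.32 and 10.42 in eWAT, a difference of -4.54 ± 0.12. Caveolae, the membrane pits that fat cells have in great number, use Cav1, which was at -0.04 ± 0.07, and Cavin3, which rose by 0.77 ± 0.12.

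Lipolysis genes were lower as a group. Of 13 measured, 11 fell, 5 of them at least 2-fold, and 2 rose (median -0.89). The lipases differed less than the receptors that restrain or start them. Pnpla2, the lipase that starts triglyceride breakdown, was at -0.39 ± 0.06. Lipe, hormone-sensitive lipase, measured 11.37, 11.34 and 11.53 against 12.30, 12.28 and 12.25, a difference of -0.86 ± 0.08. The lactate receptor Hcar1, which restrains lipolysis, measured 6.68, 6.60 and 6.70 in PMEF adipocytes and 10.46, 10.25 and 10.29 in eWAT, a difference of -3.67 ± 0.08 (12.8-fold). The natriuretic peptide receptor Npr1 was at -2.84 ± 0.09, the ketone body receptor Hcar2 at -2.46 ± 0.15 and the short-chain fatty acid receptor Ffar2 at -1.14 ± 0.07. The genes that rose were G0s2, an inhibitor of the lipase that Pnpla2 encodes (0.79 ± 0.19), and Abhd5, its activator (0.27 ± 0.10). G0s2 measured 9.24, 8.44 and 8.18 in eWAT, and its difference was 1.10 without eWAT replicate 1. The call of Abhd5 was lost without PMEF replicate 1 (0.29) or 3 (0.21) and without eWAT replicate 1 (0.18) or 2 (0.28).

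Genes of fatty acid uptake were divided. Of 13 measured, 5 rose and 5 fell (median -0.08). Lpl, which frees fatty acids from circulating lipoproteins, and Cd36, which helps fatty acids enter the cell, were not called, at -0.08 ± 0.06 and -0.15 ± 0.06. The carrier Fabp4, one of the most abundant fat cell proteins, measured 12.47, 12.36 and 12.36 in PMEF adipocytes and 12.59, 12.62 and 12.58 in eWAT, a difference of -0.20 ± 0.06. These small differences moved across the threshold, as Fabp4 was not called without PMEF replicate 2 or 3 (-0.18 each) and Cd36 was called without eWAT replicate 2 (-0.18). The related carriers Fabp5 and Fabp3 went the other way. Fabp5 measured 11.77, 11.68 and 11.59 against 10.72, 10.06 and 10.20, and Fabp3, the heart-type carrier, measured 8.79, 8.46 and 8.63 against 6.0, 5.67 and 5.48, a difference of 2.91 ± 0.13. The transporter gene Slc27a3 rose by 1.41 ± 0.14. Gpihbp1, which holds lipoprotein lipase on the capillary wall, fell by 3.29 ± 0.07. Gpihbp1 is a gene of endothelial cells, whose markers fell too, and their part in this result was not tested.

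Genes of triglyceride assembly fell more often than they rose. Of 15 measured genes, 8 fell, 3 of them at least 2-fold, and 1 rose (median -0.30). Dgat2, which adds the last acyl chain, measured 10.41, 10.18 and 10.54 in PMEF adipocytes and 12.66, 12.61 and 12.55 in eWAT, a difference of -2.23 ± 0.08. Pck1, which makes glycerol backbone from non-sugar sources, measured 8.02, 7.49 and 7.49 against 12.14, 12.11 and 12.29, a difference of -4.52 ± 0.17 (22.9-fold). Mogat1, a monoacylglycerol acyltransferase, fell by 3.18 ± 0.16 to a level within the background range. Gpat3, a fat cell isoform of the enzyme for the first acylation, rose by 0.36 ± 0.07, and Gpam, its mitochondrial counterpart, was at -0.80 ± 0.07.

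In fatty acid synthesis, 13 of 18 measured genes fell, 7 at least 2-fold, and 4 rose (median -0.81). Acly, which supplies acetyl-CoA, was at -1.44 ± 0.09 and Fasn, fatty acid synthase, at -0.93 ± 0.07. Acacb, an acetyl-CoA carboxylase, was at -2.81 ± 0.09. The glucose-sensing transcription factor gene Mlxipl was at -2.09 ± 0.08 and the elongase Elovl6 at -2.02 ± 0.07. The genes that rose act on long and unsaturated chains. The desaturase gene Fads2 measured 10.52, 10.68 and 10.54 in PMEF adipocytes and 8.38, 8.71 and 8.51 in eWAT, its neighbour Fads1 rose by 0.76 ± 0.16, and the elongase Elovl1 by 1.18 ± 0.07. Elovl3, an elongase of very long chains known from brown fat and skin, measured 10.66, 10.53 and 10.61 against 6.60, 5.32 and 5.03, a difference of 4.95 ± 0.28. Without eWAT replicate 1, the highest of the eWAT arrays in this gene, it was 5.43. Scd1, the desaturase that makes oleate, was at -0.33 ± 0.06, and Scd2 was not called at 0.17 ± 0.07, but was called without eWAT replicate 1 (0.22).

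**Figure D2:**
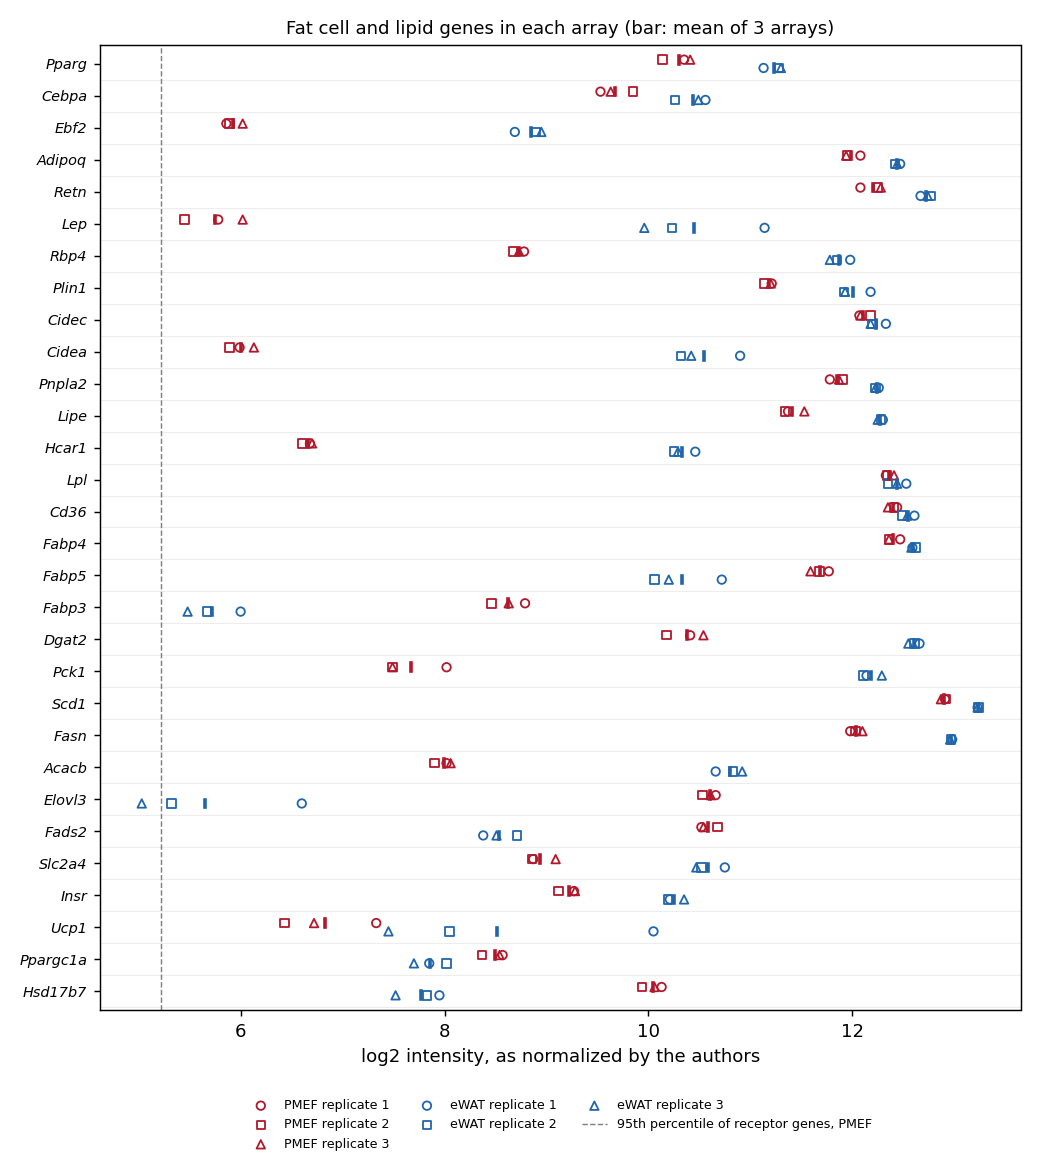
Log2 intensity of 30 fat cell and lipid genes in each PMEF (red) and eWAT (blue) array, with symbols for replicates, a bar for the mean of 3 arrays and a dashed line at the 95th percentile of receptor genes in PMEF adipocytes (5.22). Cidec, Lpl, Cd36 and Fabp4 nearly coincide between the groups, Lep, Cidea, Hcar1 and Pck1 are lower in every PMEF array, and Elovl3, Fabp3, Fabp5 and Fads2 are higher in every PMEF array.

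Genes of insulin action fell more often than they rose, with 10 of 15 lower and 3 higher (median -0.53). Slc2a4, which codes for the insulin-responsive glucose transporter GLUT4, measured 8.87, 8.86 and 9.09 in PMEF adipocytes and 10.75, 10.52 and 10.47 in eWAT, a difference of -1.64 ± 0.09. Insr, the insulin receptor, was at -1.03 ± 0.08, and Tbc1d4, which holds GLUT4 vesicles back until insulin acts, at -1.18 ± 0.08. The kinase gene Pdpk1 was not called at -0.10 ± 0.06. The genes that rose were Grb10, an imprinted adaptor that dampens insulin receptor signalling (2.28 ± 0.07), Akt1 (0.87 ± 0.08) and Slc2a1, the basal glucose transporter GLUT1 (0.73 ± 0.07). In glycolysis, 8 of 17 genes fell and 4 rose (median -0.20). The largest falls in the list were those of Pfkp at -2.06 ± 0.07 and Hk2 at -1.49 ± 0.11. Next came Pdk1, a kinase of pyruvate dehydrogenase, at -1.47 ± 0.09 and Pfkl at -1.38 ± 0.10. Eno2, the neuronal enolase, rose by 1.60 ± 0.11.

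The breakdown of branched-chain amino acids, a fuel and carbon source of mature fat cells, was lower nearly throughout. Of 21 measured genes, 20 fell, 7 of them at least 2-fold, and none rose (median -0.86). Ivd, of leucine breakdown, measured 8.49, 8.52 and 8.65 in PMEF adipocytes and 10.77, 10.47 and 10.56 in eWAT, a difference of -2.05 ± 0.09. The 2 subunits of methylcrotonyl-CoA carboxylase, Mccc1 and Mccc2, were at -1.76 ± 0.09 and -1.39 ± 0.06, and Aldh6a1, of valine breakdown, at -1.47 ± 0.07. The member that was not called was Acad8, at -0.05 ± 0.09. Fatty acid oxidation differed less, with 10 of 18 genes lower and 3 higher (median -0.26), from Ehhadh, a peroxisomal enzyme, at -1.16 ± 0.13 to Slc25a20, the carnitine carrier, at 0.48 ± 0.09. Of 23 genes of the respiratory chain and citrate cycle, 12 fell and 2 rose, none at least 2-fold (median -0.19). Without PMEF replicate 1 or 2, or eWAT replicate 1 or 3, 8 of these fell, and 7 in a fit of the 6 arrays alone. Ndufb8, a subunit of complex I, had the largest difference at -0.90 ± 0.11.

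The thermogenic and beige fat list, which shares Cidea and Ebf2 with the lists above, had 7 falls and 3 rises among 17 genes (median -0.20). Ucp1, the uncoupling protein of brown and beige fat, measured 7.33, 6.43 and 6.72 in PMEF adipocytes and 10.05, 8.05 and 7.45 in eWAT. The eWAT arrays spread widely, and the difference of -1.69 ± 0.47 became -0.92 without eWAT replicate 1 (limma adjusted p = 0.00566). Prdm16, which drives brown fat fate, was at -1.58 ± 0.14. Ppargc1a, a coactivator that raises mitochondrial genes, rose by 0.64 ± 0.09, as did Zic1, a transcription factor gene used as a brown fat marker, by 1.78 ± 0.09 from an eWAT level within the background range. The deiodinase Dio2 was not called at -0.05 ± 0.21, or at 0.26 without eWAT replicate 1.

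Cholesterol synthesis genes rose in PMEF adipocytes. Of 17 measured genes, 16 rose, 7 of them at least 2-fold, and 1 fell (median 0.83). Hsd17b7, which also serves a late step of sterol synthesis, measured 10.13, 9.94 and 10.06 in PMEF adipocytes and 7.95, 7.83 and 7.52 in eWAT, a difference of 2.28 ± 0.10. The methyl sterol oxidase Msmo1 measured 10.26, 10.25 and 10.10 against 8.58, 8.33 and 8.30, and Cyp51, the lanosterol demethylase, 9.52, 9.63 and 9.43 against 7.82, 7.90 and 7.64. In these genes every PMEF array lay above every eWAT array. Sqle, squalene epoxidase, rose by 1.39 ± 0.11, and Pmvk, a kinase of the mevalonate steps, was the member that fell, at -0.30 ± 0.08. Srebf2, the transcription factor gene that controls this pathway, rose by 0.88 ± 0.07, its escort Scap by 0.71 ± 0.07 and the sterol carrier Stard4 by 1.39 ± 0.11. Of 9 genes of cholesterol control and transport, 5 rose and none fell (median 0.35). Insig2, which retains the factor in the endoplasmic reticulum, was not called at -0.09 ± 0.07.

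The promoters of these genes were read because SREBP-2, the factor that Srebf2 encodes, is known to act together with NF-Y, a factor that binds the box CCAAT. The 250 bases before the start site are shown for the 3 members with the largest rise, from RefSeq (GRCm38.p6), 5′ to 3′ along the gene, with CCAAT or its reverse complement in capitals. Hsd17b7 lies on the minus strand at chr1:169969206-169969455, Msmo1 on the minus strand at chr8:64733579-64733828 and Cyp51 on the minus strand at chr5:4104698-4104947.
Hsd17b7: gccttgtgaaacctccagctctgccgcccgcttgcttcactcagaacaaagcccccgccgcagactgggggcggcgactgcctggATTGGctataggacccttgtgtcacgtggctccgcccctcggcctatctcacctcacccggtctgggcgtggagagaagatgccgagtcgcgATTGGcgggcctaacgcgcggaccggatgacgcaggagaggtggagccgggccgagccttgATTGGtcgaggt
Msmo1: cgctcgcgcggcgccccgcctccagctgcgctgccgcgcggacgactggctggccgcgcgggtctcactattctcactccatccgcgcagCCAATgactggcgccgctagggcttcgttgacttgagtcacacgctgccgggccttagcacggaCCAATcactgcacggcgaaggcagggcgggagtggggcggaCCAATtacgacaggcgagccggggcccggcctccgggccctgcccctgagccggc
Cyp51: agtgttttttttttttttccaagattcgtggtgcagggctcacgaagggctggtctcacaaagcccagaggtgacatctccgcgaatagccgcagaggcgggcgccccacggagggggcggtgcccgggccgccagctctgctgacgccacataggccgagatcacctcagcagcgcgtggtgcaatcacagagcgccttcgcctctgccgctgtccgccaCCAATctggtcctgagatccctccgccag
Hsd17b7 and Msmo1 held 3 such boxes each and Cyp51 held 1. CCAAT on either strand was found in 14 of the 14 cholesterol synthesis genes with a promoter in the table, against 38.9% of all genes analysed and 33.8% of all promoter windows of this length. TCACNCCAC, the core of a sterol regulatory element, was found in 1 of the 14, against 1.2% of genes analysed. CCAAT was not particular to this list. It was also found in 15 of 16 mitosis genes and 11 of 16 DNA replication genes with a promoter. These are matches of letters and not sites.

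Other metabolic lists moved in part. Genes of serine, one-carbon and amino acid stress metabolism rose in 12 of 19 cases and fell in 4 (median 0.55), led by the amino acid transporters Slc7a5 (1.70 ± 0.17) and Slc7a11 (1.39 ± 0.10) and the mitochondrial folate enzyme Mthfd2 (1.35 ± 0.17). Of 22 antioxidant enzymes, 15 fell and 5 rose (median -0.28), with Gsta3, a glutathione transferase, at -2.20 ± 0.18, Gpx1 at -1.17 ± 0.07 and Gpx7, of the endoplasmic reticulum, at 1.32 ± 0.10. Of 12 immediate early and heat shock genes, 7 fell and none rose (median -0.45). Of 12 carbonic anhydrases, 5 fell and 3 rose. Car4, the membrane-bound form, measured 7.08, 7.13 and 7.02 in PMEF adipocytes and 10.56, 10.35 and 10.31 in eWAT, while Car2, a cytosolic form, measured 8.66, 8.54 and 8.56 against 6.45, 5.76 and 5.94. The 2 forms thus changed in opposite directions in every array, by -3.33 ± 0.08 and 2.53 ± 0.14.

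Most lists of extracellular matrix genes had more rises than falls. Of 11 fibrillar collagen genes, 10 rose, 5 of them at least 2-fold (median 1.0). Col1a1, the main chain of type I collagen, measured 12.17, 12.31 and 12.28 in PMEF adipocytes and 10.30, 10.63 and 10.53 in eWAT, a difference of 1.77 ± 0.09. Col3a1 was at 1.0 ± 0.08, Col5a2, which limits fibril width, at 1.86 ± 0.07 and Col11a1 at 1.96 ± 0.09. The fibrillar member that fell was Col5a3, at -0.39 ± 0.07. Among 10 other collagens, 9 rose and none fell (median 1.14). Col12a1 measured 11.58, 11.57 and 11.34 against 5.77, 5.75 and 5.78, a difference of 53.1-fold, and Col8a1, a network-forming chain, was at 4.43 ± 0.12. Basement membrane genes moved less, with 11 of 18 higher and 1 lower (median 0.29). Nid2 rose by 1.48 ± 0.07, Nid1 was not called at 0.00 ± 0.06 and Lama5, a laminin chain, fell by 0.64 ± 0.09.

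Enzymes that modify and cross-link collagen rose with their substrates. Of 15 measured, 12 rose, 10 of them at least 2-fold, and 1 fell (median 1.53). Lox, lysyl oxidase, which starts the cross-links, measured 12.42, 12.40 and 12.25 in PMEF adipocytes and 9.20, 9.0 and 8.94 in eWAT, a difference of 3.31 ± 0.08 (limma adjusted p = 1.9e-12). Plod2, which hydroxylates telopeptide lysines, rose by 2.79 ± 0.10 and Loxl3, a relative of Lox, by 1.82 ± 0.10. P4ha3 measured 10.34, 10.38 and 10.15 against 5.55, 4.69 and 4.86, while P4ha1, the common prolyl hydroxylase subunit, fell by 0.35 ± 0.10. Plod1 was not called at 0.16 ± 0.06, but was called without PMEF replicate 1 (0.19) or eWAT replicate 1 (0.20).

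Fibre-forming and matricellular genes rose in 19 of 21 cases, 16 of them at least 2-fold (median 1.46). Fbn2, a fibrillin of fetal microfibrils, measured 10.04, 10.21 and 9.92 in PMEF adipocytes and 5.18, 5.22 and 5.15 in eWAT, where it lay within the background range. Mfap4, a microfibril protein, was at 4.44 ± 0.09, the anti-adhesive glycoprotein gene Thbs2 at 3.77 ± 0.08 and Tnc, tenascin C, at 3.67 ± 0.16. Fn1, fibronectin, was at 0.89 ± 0.10, Fbln1 was not called at 0.27 ± 0.19, or at 0.03 without eWAT replicate 1, and Has2, a hyaluronan synthase, fell by 0.56 ± 0.13. Of 11 small leucine-rich proteoglycans, which bind collagen fibrils, 10 rose and none fell (median 1.36). Fmod, fibromodulin, measured 11.35, 11.25 and 11.22 against 6.79, 6.96 and 6.79, a difference of 21.5-fold. Aspn, Lum and Epyc rose by 2.10 ± 0.10, 2.01 ± 0.08 and 1.71 ± 0.14, and Podn was not called at -0.12 ± 0.10.

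Matrix proteases and their inhibitors went both ways. Of 22 measured, 15 rose, 11 of them at least 2-fold, and 4 fell (median 1.08). The membrane-bound collagenase gene Mmp14 measured 11.25, 11.25 and 11.16 in PMEF adipocytes and 8.81, 8.79 and 8.78 in eWAT. Mmp23 and Mmp11 rose by 2.68 ± 0.10 and 2.61 ± 0.09. The inhibitors Timp1 and Timp4 moved in opposite directions. Timp1 measured 10.25, 10.33 and 9.98 against 6.39, 7.01 and 7.17, while Timp4, an inhibitor that is high in fat tissue, measured 5.38, 5.40 and 5.50 against 11.27, 11.05 and 10.90. Mmp9, a gelatinase of myeloid cells, fell by 3.53 ± 0.16 and Mmp3, stromelysin, by 1.18 ± 0.15. The markers of myeloid cells fell too, and their part in the fall of Mmp9 was not tested.

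Contractile genes rose in 10 of 15 cases and fell in 2 (median 0.55). Acta2, the smooth muscle actin of myofibroblasts, measured 11.79, 11.86 and 11.59 in PMEF adipocytes and 10.86, 11.00 and 10.91 in eWAT. Actg2, Tpm2, Tpm1 and Tagln rose by 2.27 ± 0.12, 1.28 ± 0.12, 1.19 ± 0.07 and 1.13 ± 0.14. The members that fell were Myh11, the myosin of mature smooth muscle (-1.26 ± 0.11), and Synpo2 (-1.61 ± 0.10). Among 14 stromal progenitor genes, 8 rose and 3 fell (median 0.41). Thy1, a surface marker of fibroblasts, measured 11.74, 11.79 and 11.82 against 8.53, 8.55 and 8.48, and the growth factor receptor Pdgfra, which marks fat progenitors, was at 1.68 ± 0.13. The progenitor genes that fell were Pi16 at -2.23 ± 0.09, Cd24a at -1.68 ± 0.19 and Dpp4 at -1.55 ± 0.14, of which Pi16 and Dpp4 mark an early stromal population of adult fat.

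**Figure D3:**
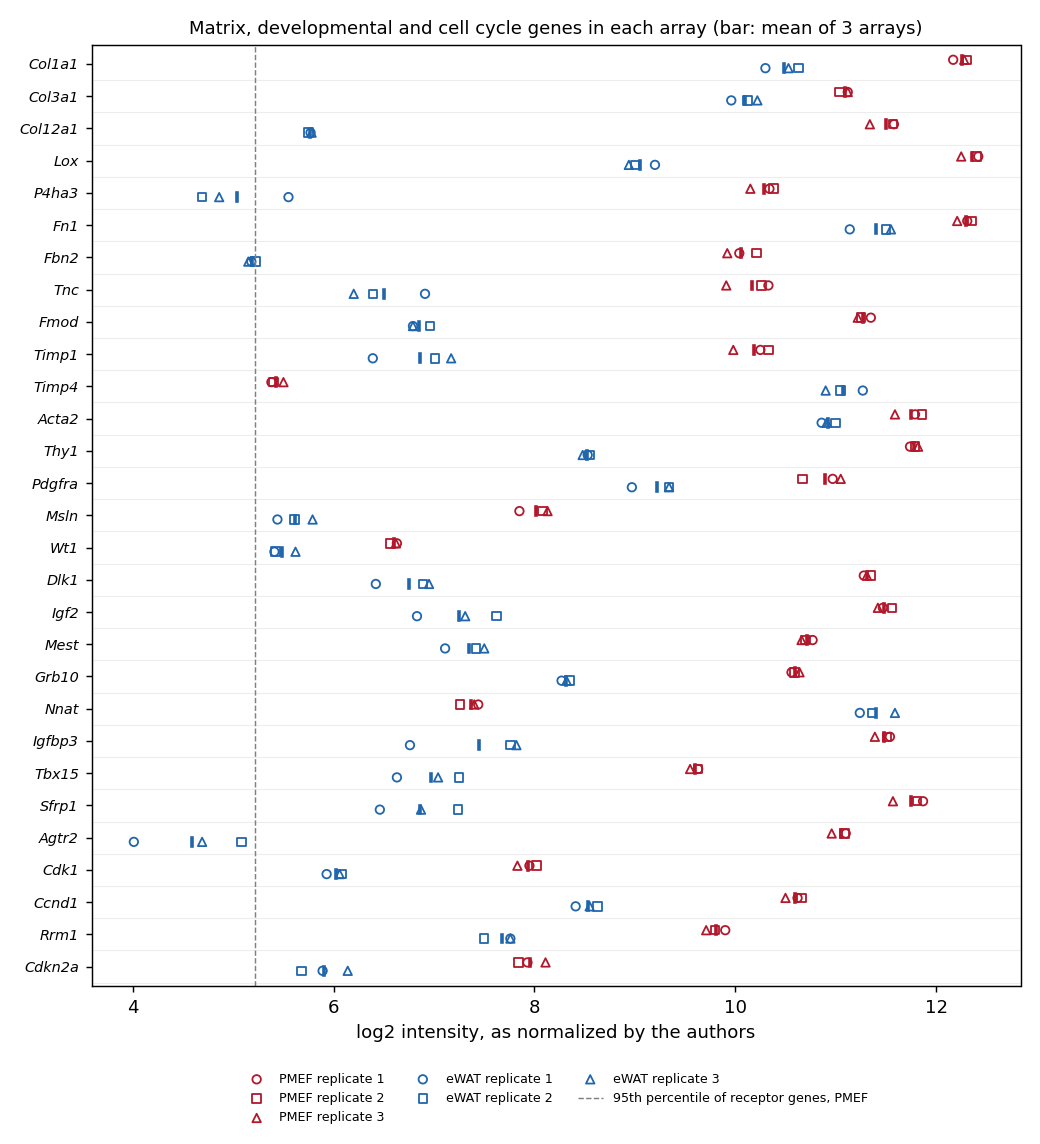
Log2 intensity of 29 matrix, stromal, developmental and cell cycle genes in each PMEF (red) and eWAT (blue) array, with symbols for replicates, a bar for the mean of 3 arrays and a dashed line at the 95th percentile of receptor genes in PMEF adipocytes (5.22). Every PMEF array lies above every eWAT array except in Timp4 and Nnat, where every PMEF array lies below.

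Imprinted genes of fetal growth rose almost as a block. These genes are expressed from the allele of 1 parent, and many are silenced after birth. Of 20 measured, 18 rose, 15 of them at least 2-fold, and 1 fell (median 2.41). Dlk1, a paternally expressed membrane protein that restrains adipogenesis, measured 11.28, 11.35 and 11.31 in PMEF adipocytes and 6.42, 6.89 and 6.95 in eWAT, a difference of 4.56 ± 0.11 (23.6-fold, limma adjusted p = 3.07e-12). Igf2, the fetal growth factor, measured 11.47, 11.56 and 11.42 against 6.83, 7.62 and 7.31, a difference of 4.23 ± 0.15. Mest, which marks growing fat tissue, was at 3.37 ± 0.12, and Plagl1, a transcription factor gene tied to this network, at 2.84 ± 0.10. The PMEF arrays lay close together and far above the eWAT arrays in all of these. Nnat, an imprinted membrane protein of neurons and fat cells, went the other way, at 7.44, 7.26 and 7.40 against 11.24, 11.36 and 11.59, a difference of -4.03 ± 0.11. Magel2 was not called at 0.12 ± 0.12.

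The maternally expressed non-coding genes next to Dlk1 on chromosome 12 rose as well. Meg3 measured 11.23, 11.18 and 11.28 in PMEF adipocytes and 8.30, 8.45 and 8.42 in eWAT, and Rian measured 7.38, 7.27 and 7.29 against 4.96, 4.76 and 4.90. The array also has probe sets on miRNA hairpin loci, 40 of them between Meg3 and Mirg. All 40 rose, 26 of them at least 2-fold (median 1.48, range 0.29 to 2.99), and in 39 the PMEF arrays lay above all eWAT arrays. Over all genes, 24.7% rose, and the PMEF arrays lay above all eWAT arrays in 28.2%. Of the 256 other miRNA loci measured, 45 rose and 27 fell (median 0.07). Levels were low, as 26 of the 40 lay within the background range in eWAT and 13 in PMEF adipocytes. The loci share 1 transcribed region and are not independent, and mature miRNAs were not measured, since total RNA was labelled and the probe sets read the locus. The miRNA loci were singled out after their values were seen.

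**Figure D4:**
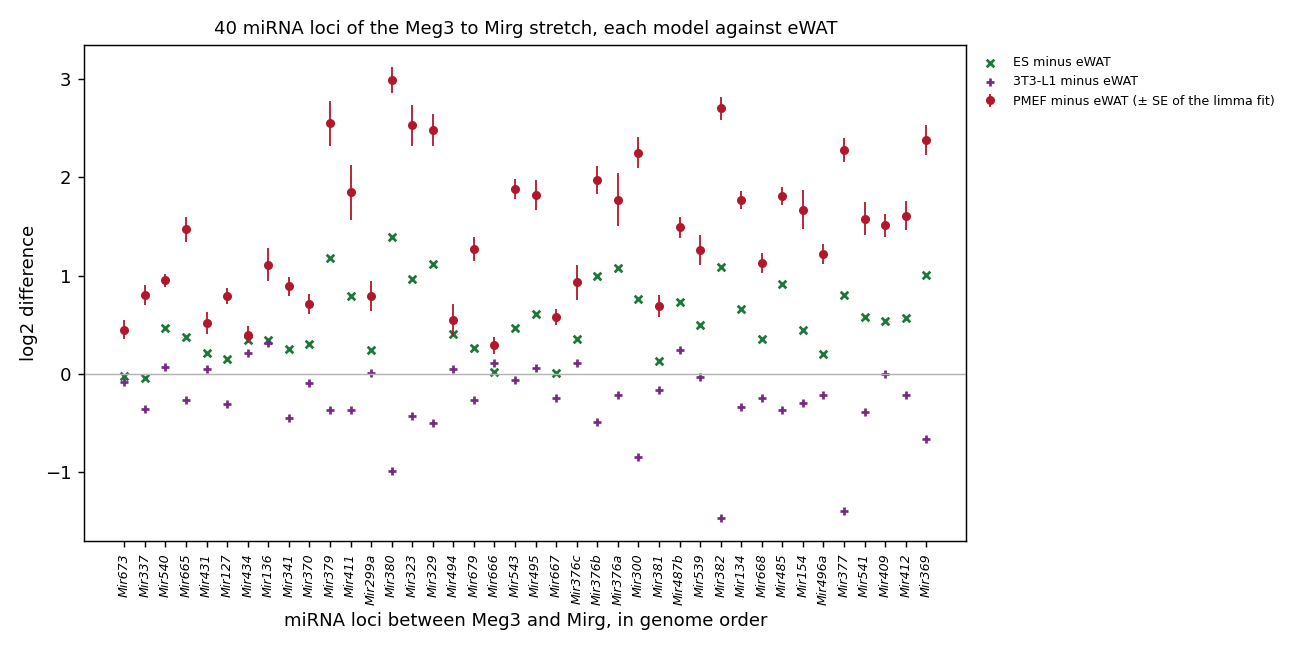
Log2 difference from eWAT of 40 miRNA loci in genome order between Meg3 and Mirg, for PMEF adipocytes (red circles with the SE of the limma fit), ES adipocytes (green crosses) and 3T3-L1 adipocytes (purple plus signs). All PMEF differences are above 0, from 0.29 to 2.99, while the medians of the ES and 3T3-L1 differences, which use the same eWAT arrays, are 0.47 and -0.25.

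The largest rise in the stretch was that of Mir380, at 6.64, 6.59 and 6.66 in PMEF adipocytes and 3.99, 3.40 and 3.52 in eWAT, a difference of 2.99 ± 0.13. Mir382 measured 7.96, 7.52 and 7.38 against 4.92, 5.01 and 4.83, and Mir379 measured 5.88, 5.44 and 4.91 against 3.14, 2.90 and 2.55. Outside it, the largest rise among all miRNA loci was that of Mir218-1, at 8.65, 8.61 and 8.58 against 4.98, 4.72 and 5.20, a difference of 3.64 ± 0.12. Mir218-1 lies within the span of Slit2 in the RefSeq gene table, and Slit2 itself measured 10.81, 10.70 and 10.57 against 4.80, 5.53 and 5.32. The mature sequences of these 4 loci are shown from RefSeq (GRCm38.p6), 5′ to 3′ with the seed, bases 2 to 8, in capitals, because the loci carry the largest rises inside and outside the stretch.
mmu-miR-380-5p: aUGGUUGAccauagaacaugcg
mmu-miR-380-3p: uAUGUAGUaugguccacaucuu
mmu-miR-382-5p: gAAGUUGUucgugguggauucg
mmu-miR-382-3p: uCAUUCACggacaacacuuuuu
mmu-miR-379-5p: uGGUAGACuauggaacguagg
mmu-miR-379-3p: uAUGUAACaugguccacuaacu
mmu-miR-218-5p: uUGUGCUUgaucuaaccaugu
mmu-miR-218-1-3p: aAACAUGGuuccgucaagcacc
The sequences of miR-380-5p and miR-380-3p lie at chr12:109711806-109711827 and chr12:109711842-109711863, those of miR-382 at chr12:109733781-109733802 and chr12:109733819-109733840, those of miR-379 at chr12:109709065-109709085 and chr12:109709102-109709123, and those of miR-218-1 at chr5:48223966-48223986 and chr5:48224005-48224026, all on the plus strand. No seed was shared among these 8. Over the stretch, the 40 loci give 76 mature miRNAs with 74 distinct seeds, and 2 seeds are shared by a pair of loci each. AUGUAAC is carried by miR-379-3p and miR-411-3p, whose loci rose by 2.55 and 1.85, and UGGAUAU by miR-376b-5p and miR-376c-5p, whose loci rose by 1.97 and 0.93.

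Of the miRNA loci, 3 fell at least 2-fold. Mir505 measured 8.11, 7.35 and 7.53 in PMEF adipocytes and 8.65, 8.96 and 9.09 in eWAT, and Mir568 and Mir680-1 were at -1.23 ± 0.12 and -1.10 ± 0.18. Mir126a, which lies within the endothelial gene Egfl7, was at -0.77 ± 0.17, all at levels within the background range, while Egfl7 was at -2.50 ± 0.09. Mir335, within Mest, rose by 0.36 ± 0.12, against 3.37 ± 0.12 for Mest. The call of Mir335 was lost without PMEF replicate 2 (0.18) and without eWAT replicate 1 (0.35) or 3 (0.33).

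Genes of the fetal insulin-like growth factor system rose in 8 of 12 cases and fell in 2 (median 1.27). Igfbp3, a binding protein that sequesters these factors, measured 11.54, 11.51 and 11.39 in PMEF adipocytes and 6.76, 7.76 and 7.82 in eWAT, a difference of 4.03 ± 0.21 that was 3.69 without eWAT replicate 1. Igfbp2 was at 3.38 ± 0.07, and the oncofetal RNA-binding protein genes Igf2bp3 and Igf2bp1 at 2.70 ± 0.09 and 1.87 ± 0.12, both from eWAT levels within the background range. Igf1, the postnatal growth factor, was lower at -0.47 ± 0.13, and Igfbp4 at -0.51 ± 0.08. Of 36 transcription factor genes of mesoderm and limb, 21 rose, 10 of them at least 2-fold, and 4 fell (median 0.42). Tbx15, a T-box gene of limb and trunk mesenchyme, measured 9.63, 9.63 and 9.55 against 6.63, 7.25 and 7.04. The homeobox gene Prrx2, the odd-skipped gene Osr2 and Emx2 rose by 2.61 ± 0.10, 2.24 ± 0.14 and 2.14 ± 0.13.

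Hox genes record position along the body. Of 37 measured, 13 rose and 7 fell, and 1 of these differences reached 2-fold (median 0.14), while 10.4% of all genes were called at least 2-fold. That gene was Hoxc10, a posterior gene of hindlimb and gonadal level, at 6.76, 6.70 and 6.68 in PMEF adipocytes and 7.80, 7.69 and 7.77 in eWAT. Hoxb9 rose by 0.97 ± 0.09, Hoxa3 fell by 0.94 ± 0.08, and Hoxc8 was not called at -0.02 ± 0.09, with levels of 10.33 to 10.61 in both groups. Of the 37 genes, 9 lay within the background range in both groups.

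Mesothelial genes, which mark the sheet of cells that covers visceral organs and fat, rose in 14 of 16 cases, 10 of them at least 2-fold (median 1.24). Msln, mesothelin, measured 7.85, 8.08 and 8.13 in PMEF adipocytes and 5.44, 5.61 and 5.79 in eWAT. The uroplakin genes Upk1b and Upk3b were at 4.13 ± 0.12 and 3.38 ± 0.16, Pdpn at 2.97 ± 0.16 and Wt1, a transcription factor gene of mesothelium and visceral fat progenitors, at 1.12 ± 0.09. Of the 16, 4 lay within the background range in eWAT and 1 in PMEF adipocytes. Cldn15, a claudin, fell by 0.61 ± 0.08.

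Genes of the Wnt pathway, a list that holds ligands, receptors and secreted antagonists, rose in 15 of 29 cases, 10 of them at least 2-fold, and fell in 2 (median 0.30). The secreted Wnt inhibitor gene Sfrp1 measured 11.87, 11.81 and 11.57 in PMEF adipocytes and 6.46, 7.24 and 6.87 in eWAT, a difference of 4.89 ± 0.17. The receptor gene Fzd2 was at 3.66 ± 0.06, the Wnt enhancer Rspo3 at 3.01 ± 0.12 and Dkk3 at 2.83 ± 0.10, while Sfrp4 fell by 1.04 ± 0.14. Of 32 genes of the TGF-beta and BMP pathway, 17 rose and 10 fell (median 0.44). Ligands and antagonists led the rises, with Inhba, an activin subunit, at 3.08 ± 0.11, Tgfb2 at 2.09 ± 0.12, the BMP antagonist Grem1 at 2.09 ± 0.16 and the activin antagonist Fst at 1.89 ± 0.11. The falls included Bmp2 (-1.28 ± 0.14), Bmp6 (-1.28 ± 0.13), Id1, a target of BMP signalling (-1.32 ± 0.08), and Acvr1c, an activin-type receptor of fat cells (-1.73 ± 0.10).

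Of the angiotensin system, 3 of 6 genes rose and 1 fell. Besides Agtr2, the type 1 receptor Agtr1a measured 9.35, 9.37 and 9.24 in PMEF adipocytes and 8.18, 8.01 and 8.04 in eWAT, and Ace, the converting enzyme, rose by 0.90 ± 0.16, and by 0.65 without eWAT replicate 1. Enpep, which degrades angiotensin II, fell by 2.94 ± 0.10. Of 22 nuclear receptor genes, 12 fell and 4 rose (median -0.26). Esr1, the estrogen receptor alpha, measured 6.91, 7.04 and 7.10 against 8.92, 9.33 and 9.54, and Rxrg was at -1.66 ± 0.07, while the glucocorticoid receptor Nr3c1 was not called at -0.01 ± 0.08. Among 13 retinoid genes, 5 rose and 4 fell. Crabp1, a carrier of retinoic acid, measured 10.14, 10.49 and 10.16 against 6.33, 6.79 and 6.32, and Rarb, a receptor and target of retinoic acid, fell by 1.59 ± 0.15. Clock genes were divided, with 6 of 16 higher and 8 lower. Dbp and Ciart rose by 1.34 ± 0.11 and 1.43 ± 0.14, and Nr1d1 fell by 1.24 ± 0.10. The time of day of sampling was not given in the sources used here.

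Genes of cell division were higher in PMEF adipocytes. All 20 measured mitosis genes rose, 9 of them at least 2-fold (median 0.89), though 9 lay within the background range in eWAT. Cdk1, the kinase that starts mitosis, measured 7.95, 8.02 and 7.83 in PMEF adipocytes and 5.93, 6.08 and 6.06 in eWAT, a difference of 1.91 ± 0.08 (limma adjusted p = 3.08e-10). Ccnb2, a mitotic cyclin, measured 8.40, 8.25 and 8.0 against 6.32, 6.46 and 6.68, and Prc1, which bundles spindle microtubules, 6.24, 6.28 and 6.18 against 4.44, 4.78 and 4.96. Mki67, the proliferation antigen, differed less, at 0.78 ± 0.12. Of 19 DNA replication genes, 10 rose and 2 fell (median 0.29). Rrm1 and Rrm2, the subunits of ribonucleotide reductase, rose by 2.13 ± 0.09 and 1.81 ± 0.12, and Ccne1 by 1.89 ± 0.08. Pcna, the sliding clamp, went the other way at -0.77 ± 0.10. Ccnd1, the cyclin of early G1, rose by 2.07 ± 0.10.

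The promoters of the 3 mitosis genes with the largest rise that hold TTTGAA, the core of the element through which the DREAM complex represses mitotic genes outside division, are shown. They are the 250 bases before the start site from RefSeq (GRCm38.p6), with TTTGAA in capitals. Cdk1 lies on the minus strand at chr10:69352913-69353162, Ccnb2 on the minus strand at chr9:70421555-70421804 and Prc1 on the plus strand at chr7:80294226-80294475.
Cdk1: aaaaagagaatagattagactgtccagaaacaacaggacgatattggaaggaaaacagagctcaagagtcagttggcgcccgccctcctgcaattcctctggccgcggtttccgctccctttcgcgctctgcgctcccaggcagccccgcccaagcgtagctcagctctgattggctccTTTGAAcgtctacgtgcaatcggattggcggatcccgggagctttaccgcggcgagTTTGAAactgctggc
Ccnb2: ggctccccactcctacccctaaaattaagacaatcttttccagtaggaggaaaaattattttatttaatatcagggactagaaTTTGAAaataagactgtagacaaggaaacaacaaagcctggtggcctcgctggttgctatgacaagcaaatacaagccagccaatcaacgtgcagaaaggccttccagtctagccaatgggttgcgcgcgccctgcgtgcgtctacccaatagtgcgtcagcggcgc
Prc1: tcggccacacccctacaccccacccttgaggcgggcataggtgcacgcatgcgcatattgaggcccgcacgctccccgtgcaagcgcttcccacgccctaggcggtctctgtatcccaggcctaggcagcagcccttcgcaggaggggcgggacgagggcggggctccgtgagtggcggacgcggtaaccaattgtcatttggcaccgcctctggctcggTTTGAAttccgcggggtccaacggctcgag
In Cdk1 the nearest match ended 10 bases before the start site, in Prc1, in 1 of its 2 RefSeq windows, 25 bases before it and in Ccnb2 162 bases before it. TTTGAA on either strand was found in 8 of the 16 mitosis genes with a promoter in the table, against 15.7% of all genes analysed and 16% of all windows, and CCAAT in 15 of the 16. Of the 16 replication genes with a promoter, 1 held TTTGAA and 11 held CCAAT.

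Inhibitors of the cell cycle and targets of p53 rose beside the mitosis genes, in 6 of 9 cases with 1 fall (median 0.92). Cdkn2a, the locus of the tumour suppressors p16 and ARF, measured 7.93, 7.84 and 8.11 in PMEF adipocytes and 5.89, 5.68 and 6.14 in eWAT. Its neighbour Cdkn2b was at 2.20 ± 0.08, Trp53inp1, a p53 target, at 2.53 ± 0.07 and Mdm2, which restrains p53, at 1.51 ± 0.08. Cdkn1b fell by 0.28 ± 0.08 and Cdkn2c was not called at 0.01 ± 0.09. The call of Cdkn1b was lost without PMEF replicate 2 or eWAT replicate 3 (-0.22 each).

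Markers of the vessel wall fell in PMEF adipocytes. Of 20 endothelial genes, 18 fell, 17 of them at least 2-fold, and none rose (median -2.78). Pecam1, the junction protein CD31, measured 4.85, 5.28 and 5.01 in PMEF adipocytes and 9.78, 9.49 and 9.58 in eWAT, a difference of -4.57 ± 0.11, and the phosphatase gene Ptprb was at -4.35 ± 0.10. Of the 20, 7 lay within the background range in PMEF adipocytes and 1 in eWAT. Flt1, a VEGF receptor, was not called, at 9.07, 9.04 and 8.96 against 9.10, 9.13 and 9.15, and neither was Prox1, of lymphatic vessels, which lay within the background range in both groups. All 8 pericyte genes fell (median -1.14), from Rgs5 at -4.04 ± 0.13 to the potassium channel gene Kcnj8 at -0.41 ± 0.11.

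Immune markers fell too. Of 22 macrophage genes, 21 fell, each at least 2-fold, and none rose (median -3.38, and -3.58 without eWAT replicate 1). Adgre1, a classic surface antigen of mouse macrophages, measured 5.13, 5.11 and 4.71 in PMEF adipocytes and 8.78, 9.73 and 10.24 in eWAT, a difference of -4.60 ± 0.26 that was -5.0 without eWAT replicate 1. The eWAT replicate 1 array was the lowest of its group here, as it was for the mean of the list, which was 8.08 against 8.72 and 9.01 in the other eWAT arrays and 5.49 to 5.53 in PMEF adipocytes. Clec10a, C1qc and Mrc1, genes of resident tissue macrophages, were at -4.70 ± 0.20, -4.25 ± 0.19 and -4.18 ± 0.21, the last of which was -4.48 without eWAT replicate 1. Cx3cr1 was not called, at levels of 6.03 to 6.48 in both groups. Of the 22, 9 lay within the background range in PMEF adipocytes. Of 8 class II genes, 7 fell (median -3.32), with H2-Eb1 at -4.26 ± 0.12 besides the genes named above, and H2-Oa was not called at 0.07 ± 0.10.

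Of 21 genes of lymphocytes and natural killer cells, 14 fell and none rose (median -0.91), and 15 lay within the background range in PMEF adipocytes and 7 in eWAT. Ptprc, the pan-leukocyte antigen CD45, measured 4.60, 4.92 and 5.0 against 8.02, 8.37 and 8.86. Nkg7, of cytotoxic granules, was at -2.97 ± 0.10. Mast cell and granulocyte genes fell in 10 of 13 cases (median -0.93, and -1.25 without eWAT replicate 1). Cpa3, the mast cell carboxypeptidase, measured 3.82, 3.92 and 3.60 in PMEF adipocytes and 7.72, 9.39 and 9.17 in eWAT, and the mast cell protease gene Mcpt4 was at -4.42 ± 0.26. Without eWAT replicate 1 these differences were -5.5 for Cpa3, against -4.98 with it, and -4.85 for Mcpt4. All 4 measured genes of blood cells and platelets fell, led by Pf4, a platelet chemokine, at -4.26 ± 0.12.

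Of 16 complement genes, 11 fell, 9 of them at least 2-fold, and 2 rose (median -1.36). C7, a component of the membrane attack complex, measured 5.22, 5.26 and 5.50 in PMEF adipocytes and 9.15, 10.50 and 10.37 in eWAT, a difference of -4.68 that was -5.11 without eWAT replicate 1. C4b was at -3.27 ± 0.15, the anaphylatoxin receptors C3ar1 and C5ar1, which myeloid cells carry, at -3.59 ± 0.26 and -3.28 ± 0.21, and the scavenger receptor Colec12 rose by 3.01 ± 0.08. Without eWAT replicate 1, C3ar1 was at -3.90 and C5ar1 at -3.59. Among 25 chemokines, 9 fell and 4 rose (median -0.18), a share of calls close to that of all genes (46.3%). Without eWAT replicate 1, 14 chemokines fell. Ccl6 measured 5.39, 5.31 and 5.06 against 9.60, 10.65 and 10.76, a difference of -5.08 that was -5.45 without eWAT replicate 1, and Cxcl9, an interferon-gamma target that draws T cells, was at -4.18 ± 0.13. Cxcl13, which draws B cells, spread widely in eWAT at 8.11, 10.54 and 10.97, and its difference of -2.93 ± 0.52 was -3.81 without eWAT replicate 1. The macrophage, lymphocyte and mast cell markers above moved with these genes, and their part in these results was not tested.

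Interferon response genes gave no common direction, with a share of calls close to that of all genes (46.3%). Of 17 measured, 3 rose and 4 fell (median 0.08), while 8 fell without eWAT replicate 1 (median -0.29) and 1 fell without PMEF replicate 1, without eWAT replicate 2 or without eWAT replicate 3. The list mean was 7.16, 8.10 and 8.13 in eWAT and 7.49, 7.83 and 8.06 in PMEF adipocytes, so that both groups were spread. Ifit3, an interferon-induced antiviral gene, measured 10.28, 10.76 and 10.93 in PMEF adipocytes and 8.17, 10.03 and 9.75 in eWAT, and its rise of 1.34 ± 0.44 became 0.77 without eWAT replicate 1 and was then not called (limma adjusted p = 0.0965). The call of Ifit3 was also lost without PMEF replicate 2 (1.29) and without PMEF replicate 3 (1.21). Stat2 rose by 0.89 ± 0.15 and Rsad2 fell by 1.59 ± 0.24, and both stayed called without eWAT replicate 1, at 0.71 and -1.87. Of 16 genes of inflammation and the acute phase, 8 fell and 5 rose, from Cp, ceruloplasmin, at -1.91 ± 0.09 to Saa3, a serum amyloid of fat and macrophages, at 2.10 ± 0.16. Of 10 glucocorticoid-responsive genes, 5 fell and none rose (median -0.35). Sult1a1, a sulfotransferase, measured 5.98, 6.10 and 6.17 against 9.97, 9.95 and 10.06, and Zbtb16, which is induced by glucocorticoids in many cell types, was at -1.89 ± 0.19.

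**Figure D5:**
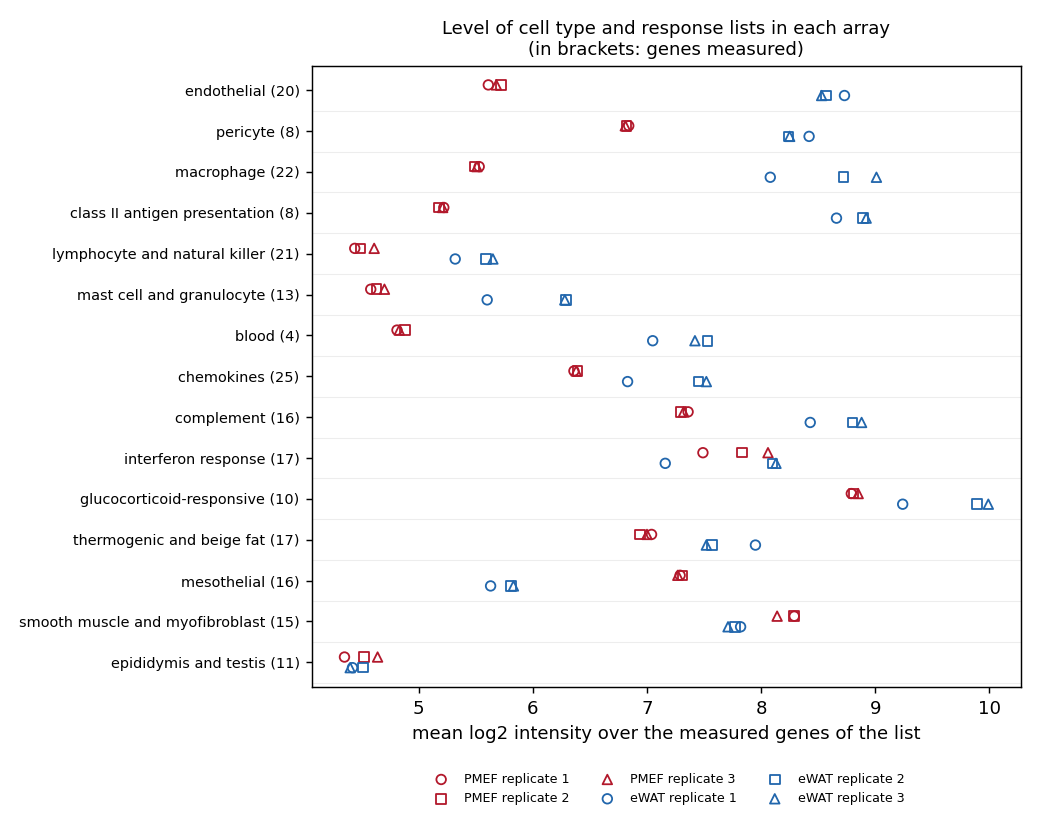
Mean log2 intensity of 15 cell type and response lists in each PMEF (red) and eWAT (blue) array, with symbols for replicates. The eWAT replicate 1 array (blue circles) lies below the other eWAT arrays in the macrophage (8.08 against 8.72 and 9.01), mast cell, chemokine, interferon and glucocorticoid lists. It is also the lowest eWAT array in the class II, lymphocyte, blood, complement and mesothelial lists. It lies above the others in the thermogenic list (7.95 against 7.57 and 7.52) and in the endothelial, pericyte and smooth muscle lists.

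Of 11 genes of epididymis and testis, tissues that lie beside this fat depot, 9 lay within the background range in both groups, 2 rose and none fell, and the highest difference was 0.33. Of 14 skeletal muscle genes, 4 rose, none of them at least 2-fold, and 1 fell. The count of rises was 2 without PMEF replicate 2 or 3 and without eWAT replicate 1 or 3. The gene that fell was Myl1, a myosin light chain, at 6.76, 6.73 and 6.53 in PMEF adipocytes and 9.43, 9.59 and 9.16 in eWAT. Of 13 neuronal and glial genes, 3 rose and 3 fell. Ncam1, a neural adhesion molecule also found in mesenchyme, rose by 2.06 ± 0.12, and the glial genes Cdh19 and Mbp were at -2.90 ± 0.16 and -1.19 ± 0.08. Of 9 epithelial genes 2 rose and 1 fell, of 12 pluripotency genes 3 rose and none fell, and of 9 bone and cartilage genes 4 rose and 1 fell. The epithelial count of rises was 1 without PMEF replicate 3, eWAT replicate 2 or eWAT replicate 3, and the pluripotency count was 5 without PMEF replicate 1. Over all genes, 46.3% were called.

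Sex-linked genes gave values of both kinds in PMEF adipocytes. Xist, a long non-coding RNA through which female cells shut down X-linked genes, measured 10.06, 10.06 and 10.07 in PMEF adipocytes and 3.81, 3.97 and 3.99 in eWAT. The Y-linked genes were above the background range in all arrays of both groups. Eif2s3y measured 8.76, 8.50 and 8.45 in PMEF adipocytes and 9.41, 9.28 and 9.21 in eWAT, a difference of -0.73 ± 0.11, and Uty and Kdm5d were at -0.40 ± 0.09 and -0.90 ± 0.14. The labels state no sex for either group, though the epididymal depot of eWAT is one of male mice. Of 739 genes on the X chromosome, 26.9% rose and 16.8% fell (median 0.08), against 24.7% and 21.8% of autosomal genes (median 0.04).

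To see where PMEF adipocytes stood against the other models as well, genes were counted that differed at least 2-fold in the same direction from eWAT, from 3T3-L1 adipocytes and from ES adipocytes. Counted genes were called in all 3 contrasts, and their PMEF and eWAT arrays did not overlap. PMEF adipocytes were above all 3 groups in 419 genes (2.10%) and below all 3 in 32 genes (0.160%). Against 3T3-L1 adipocytes alone, 7.32% of genes were at least 2-fold higher and 5.21% at least 2-fold lower in PMEF adipocytes. Against ES adipocytes alone, these shares were 4.17% and 2.54%. The 3 contrasts share the PMEF arrays, so their agreement is not independent. Of the matrix lists, 13 of 21 fibre and matricellular genes, 7 of 11 small leucine-rich proteoglycans, 7 of 15 collagen-modifying enzymes, 5 of 11 fibrillar collagens, 3 of 10 other collagens, 6 of 22 proteases and inhibitors and 0 of 18 basement membrane genes were above all 3 groups. Among the developmental lists this held for 6 of 20 imprinted genes and 6 of 36 mesoderm genes, and in none of the mitosis, cholesterol synthesis or Hox genes did it hold. Col1a1 was 2.81 above 3T3-L1 and 1.72 above ES adipocytes, and Fmod was 4.84 and 3.69 above them (limma adjusted p = 2.17e-13 and 2.95e-11). Both are examples from the counted genes, so these differences and p-values follow from the rule and are not separate evidence.

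The genes with the largest such distance, chosen after their values were seen, included several secreted proteins. Egfl6 was at least 4.80 above each group and Cpa6 at least 4.74. C1qtnf3, a member of the adiponectin-related C1q family, measured 10.49, 10.55 and 10.27 in PMEF adipocytes, with means of 5.52 in eWAT, 5.70 in 3T3-L1 and 6.15 in ES adipocytes. Reg3g, a lectin of the same family as Reg1, measured 8.35, 8.89 and 8.39, with means of 3.71, 3.62 and 4.29. Tnmd, tenomodulin, a membrane protein of tendon and fat progenitors, measured 8.16, 8.07 and 7.94, with means of 4.22, 4.38 and 4.26, which lay within the background range. Lgr5, the receptor of R-spondins, was 4.55, 4.51 and 3.60 above eWAT, 3T3-L1 and ES adipocytes.

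The genes below all 3 groups were of several kinds. Among them were the integrin gene Itga6, the hedgehog receptor gene Ptch1, the vessel growth factor gene Vegfa and Cd68, a member of the macrophage list. Cd68 had means of 10.42 in 3T3-L1 adipocytes, 9.49 in eWAT and 8.66 in ES adipocytes, against 7.11 in PMEF adipocytes. Several genes of sugar and lipid metabolism are described here, chosen after their values were seen. Pfkp, a phosphofructokinase, measured 7.15, 7.13 and 7.28 in PMEF adipocytes, with means of 9.24 in eWAT, 9.75 in 3T3-L1 and 9.31 in ES adipocytes. Hk2, the hexokinase that insulin induces in fat, had means of 8.53, 9.31 and 8.86 in those groups, against 6.83 to 7.22 in the PMEF arrays. Slc2a4 and Mogat1, described above, were also among these genes, as was Cidea, at 1.41 and 1.49 below 3T3-L1 and ES adipocytes. Hsd11b1, which regenerates active glucocorticoid inside the fat cell, measured 5.87, 5.93 and 5.75 in PMEF adipocytes, with means of 10.81, 9.97 and 7.17 in the other groups. The low PMEF levels in these genes follow from the rule by which they were chosen and are not separate evidence.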

How the data were processed

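RNA of 12 samples (3 each of PMEF, 3T3-L1 and ES adipocytes and of eWAT) was measured on Affymetrix Mouse Gene 1.0 ST arrays from 300 ng of total RNA, per the labels' protocols. The values are log2 intensities as deposited by the authors, and their background correction and normalization were not given in the sources used here, so a bias from these steps cannot be seen. Of 35556 probe sets, 21789 had exactly 1 gene symbol, which gave 19938 genes. Groups came from sample titles. Differences were fitted with limma 3.58.1 in R 4.3.3 on all 12 arrays with 1 mean per group and Benjamini-Hochberg adjustment, and the code was tested on simulated data. Precision is limited by 3 arrays a group. Lists are described by counts and medians with no set test. The members and lists were chosen with earlier results of these data known. Named genes were the 12 largest rises and falls among called genes whose PMEF and eWAT arrays did not overlap. Gene models and miRNA, small nucleolar RNA, olfactory, vomeronasal, immunoglobulin and T cell receptor genes were left out of these. Further genes were drawn, in each list, from the 4 largest rises, the 4 largest falls and the member nearest 0, and from a set of fixed genes. Not all of these are described, some lists are given by counts alone, and the choice among them followed no stated rule. The miRNA loci, their host genes, and genes set apart from all other groups were chosen after their values were seen. Promoter and miRNA sequences came from RefSeq (GRCm38.p6). Normalization, centring, filters, probe set choice, samples in the fit, a replicate block and left-out arrays were varied.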

Additional observations from a re-analysis of the deposited data

Results flagged for a closer look

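Some genes named above moved at least 2-fold in opposite directions from eWAT in PMEF adipocytes and in another model. The comparisons share the eWAT arrays, so the direct contrast of the models is given, by limma with Benjamini-Hochberg adjustment over all genes. Since the genes were chosen by these opposite differences, a large direct difference follows from the rule, and its p-value is not separate evidence. Values are log2 differences from eWAT, and the direct difference is given with its SE. Against 3T3-L1 adipocytes this held for matrix, stromal, imprinted and signalling genes. Grb10 was at 2.28 in PMEF and -3.43 in 3T3-L1 adipocytes (direct difference 5.71 ± 0.07, adjusted p = 6.28e-15). In PMEF adipocytes Col1a1 was at 1.77, against -1.04 in 3T3-L1 adipocytes (direct difference 2.81 ± 0.09, adjusted p = 1.11e-11). Col3a1 was at 1.0 in PMEF and -1.85 in 3T3-L1 adipocytes (direct difference 2.85 ± 0.08, adjusted p = 2.53e-12). In PMEF adipocytes Nid2 was at 1.48, against -1.80 in 3T3-L1 adipocytes (direct difference 3.28 ± 0.07, adjusted p = 4.44e-13). Plod2 was at 2.79 in PMEF and -1.13 in 3T3-L1 adipocytes (direct difference 3.93 ± 0.10, adjusted p = 2.05e-12). In PMEF adipocytes Tnc was at 3.67, against -1.43 in 3T3-L1 adipocytes (direct difference 5.10 ± 0.16, adjusted p = 1.36e-11). Lum was at 2.01 in PMEF and -3.87 in 3T3-L1 adipocytes (direct difference 5.88 ± 0.08, adjusted p = 9.44e-15).

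In PMEF adipocytes Tagln was at 1.13, against -2.73 in 3T3-L1 adipocytes (direct difference 3.86 ± 0.14, adjusted p = 4.67e-11). Plagl1 was at 2.84 in PMEF and -2.06 in 3T3-L1 adipocytes (direct difference 4.89 ± 0.10, adjusted p = 3.35e-13). In PMEF adipocytes Meg3 was at 2.84, against -2.34 in 3T3-L1 adipocytes (direct difference 5.18 ± 0.07, adjusted p = 9.44e-15). Rian was at 2.44 in PMEF and -1.05 in 3T3-L1 adipocytes (direct difference 3.49 ± 0.08, adjusted p = 9.53e-13). In PMEF adipocytes Mir382 was at 2.70, against -1.47 in 3T3-L1 adipocytes (direct difference 4.18 ± 0.12, adjusted p = 7.92e-12). Igfbp3 was at 4.03 in PMEF and -2.09 in 3T3-L1 adipocytes (direct difference 6.12 ± 0.21, adjusted p = 3.71e-11). In PMEF adipocytes Sfrp1 was at 4.89, against -2.59 in 3T3-L1 adipocytes (direct difference 7.49 ± 0.17, adjusted p = 7.8e-13).

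Agtr1a was at 1.24 in PMEF and -2.70 in 3T3-L1 adipocytes (direct difference 3.94 ± 0.09, adjusted p = 6.55e-13). In PMEF adipocytes Ifit3 was at 1.34, against -1.81 in 3T3-L1 adipocytes (direct difference 3.15 ± 0.44, adjusted p = 3.48e-05). Against ES adipocytes it held for a glycolysis and a cell cycle gene. Pfkl was at -1.38 in PMEF and 1.26 in ES adipocytes (direct difference -2.64 ± 0.10, adjusted p = 3.39e-10). In PMEF adipocytes Ccnd1 was at 2.07, against -1.17 in ES adipocytes (direct difference 3.24 ± 0.10, adjusted p = 6.29e-11). The rise of Ifit3 in PMEF adipocytes was not called without eWAT replicate 1, PMEF replicate 2 or PMEF replicate 3.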

How the results depend on the processing

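Of 16 alternative settings, of which treat was applied only to the counts of 2-fold changes, none turned the sign of a called difference among the 289 genes named, while 6 genes lost and 5 gained a call in some setting. Requiring a difference beyond 2-fold by limma's treat left 617 higher and 657 lower genes, against 980 and 1088. With only the 6 arrays, 4275 genes were higher and 3802 lower, against 4924 and 4301 in the fit of all 12. In that setting 7 respiratory chain genes fell, against 12. With the dimmest genes left out, 4 of 7 lymphocyte genes, 3 of 4 mast cell genes and 2 of 2 blood genes fell, where fewer genes were tested. Leaving out each array in turn gave 4342 to 5218 higher and 3882 to 4175 lower genes, and 948 to 1009 and 1067 to 1128 at least 2-fold. Median directions of the carbonic anhydrase, bone and cartilage, neuronal, epididymis, interferon and retinoid lists changed with the setting. No detection calls were used, so low levels are limited by the background range.

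With the replicate number as a block, 4796 genes were higher and 4213 lower, and 980 and 1089 at least 2-fold. Same-numbered PMEF and eWAT arrays had deviation correlations of 0.108, 0.0365 and 0.0222, against -0.0763 to 0.0574 for the other pairs. With 3 arrays a group, these values cannot show whether same-numbered arrays shared a batch. Of the genes named above, Abhd5 alone lost its call under the block.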
